A study of Mus musculus with 233 samples.

Results

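Autophagy is the route by which a cell wraps part of its cytoplasm in a double membrane, the autophagosome, and delivers it to lysosomes for digestion. The 32 genes described here cover its steps: the kinases that start it, the lipid kinase and membrane proteins that build the phagophore, the conjugation enzymes that attach Atg8 proteins to that membrane, the Atg8 proteins themselves, the receptors that bring cargo, and the lysosomal proteins that degrade it. They were named by symbol and matched to the Ensembl identifiers of the deposited table, which holds 41129 gene entries, and all 32 were found and passed the filter on low counts in each paradigm. They were measured by bulk RNA sequencing of mouse striatum in 233 libraries from 120 mice.

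The mice were heterozygous zQ175 knock-ins, in which human HTT exon 1 carrying a long CAG expansion stands in place of the mouse exon as a model of Huntington's disease, and their wild-type littermates (WT), of both sexes. Each hemisphere received 1 of 3 adeno-associated viruses in the striatum. The nZFP virus carried the HA-tagged zinc finger repressor ZFP30645, which is directed at expanded CAG repeats, under the human synapsin promoter, so that only neurons were meant to express it. In the DBD virus the same promoter drove a form of the repressor that lacks its DNA binding domain, and the Estop virus held a stuffer that encodes no protein. Injection was at 2 or 6 months of age. Tissue was collected 4 months later in the paradigm called 2M_6M after the ages at injection and collection, 6 months later in 2M_8M, 2 in 6M_8M, 4 in 6M_10M and 6 in 6M_12M. Lists of 5 values below keep this order. With zQ175 nZFP, zQ175 DBD, zQ175 Estop, WT nZFP, WT DBD and WT Estop in each paradigm there were 30 groups of 6 to 8 libraries, and all animals carried a virus, so that no group shows the untouched striatum. The 2 hemispheres of 113 mice were both sequenced, each with another virus, and 7 mice gave a single library.

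In a neuron, autophagosomes form along the axon and at synapses and travel to the cell body, and cells that cannot form them accumulate ubiquitinated protein. Mutant huntingtin is a substrate of the pathway, and normal huntingtin has been described as a scaffold for the receptor Sqstm1 and the kinase Ulk1. Transcription of many lysosomal and autophagy genes is driven by Tfeb, which binds a short palindromic element in their promoters.

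Library totals ran between 28.0 and 61.3 in units of 1000000 counts, with a median of 37.4. Transcripts of the repressor, ZFP-30645, had a median of 594 CPM (counts scaled to the library total) in the 78 libraries labelled nZFP, against 8.57 CPM in the 78 labelled DBD and 10.6 CPM in the 77 labelled Estop. The viral transcripts of 4 libraries did not match the label. Of the 6M_8M libraries, the one labelled zQ175 nZFP R5 held 8.55 CPM of the repressor, whereas those labelled WT DBD R7 and WT DBD R8 held 321 CPM and 480 CPM. In 6M_8M the summed level of 12 medium spiny neuron markers spread from 7679 to 14169 CPM in WT DBD and from 7003 to 11976 CPM in zQ175 nZFP. It spread from 5307 to 8137 CPM in zQ175 DBD and from 11766 to 15613 CPM in WT nZFP. Which libraries lay at these ends is not given, and whether the genotype labels of R5, R7 and R8 hold was not tested. The 2M_6M library labelled WT DBD R6 had 59.2 CPM of WPRE, an element of both the nZFP and the DBD virus, at the level of Estop libraries. A further 3 libraries stood apart in having few counts of long transcripts, measured by the median log2 deviation of the longest genes minus that of the shortest. This length index was -1.37 in 2M_6M zQ175 DBD R3, -1.41 in 6M_10M zQ175 nZFP R2 and -1.23 in 6M_10M WT DBD R2, whereas group medians lay between -0.32 and 0.33. The next lowest, 6M_8M WT nZFP R8, had -0.94 and was left out only in an alternative added after the data were seen. Where leaving out the 4 libraries that go against their labels, or the 3 that stand apart, changed the call of a member by genotype or by repressor in zQ175, this is stated. The second value is not given in every case. Htt itself, the targeted gene, changed by -0.20 ± 0.08 on the log2 scale under nZFP over DBD in zQ175 averaged over the paradigms (edgeR adjusted p = 0.0583). Over Estop it changed by -0.38 ± 0.08 (adjusted p = 3.59e-05). In WT the change was 0.0090 ± 0.075 over DBD (adjusted p = 0.978) and -0.23 ± 0.076 over Estop (adjusted p = 0.0451). The difference of the Htt change between genotypes did not pass with DBD (adjusted p = 0.374) or with Estop (adjusted p = 0.601). These counts do not separate the expanded allele from the normal one.

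Levels of the members differed widely within the striatum. On the per-length scale (TPM), which allows genes to be compared, the Atg8 protein Gabarapl1 was the most abundant member with a median of 1056 TPM over the 233 libraries (251 to 1291). The cargo receptor Sqstm1 followed with 497 TPM (302 to 609), and then the proteases Ctsd (383 TPM) and Ctsb (341 TPM) and the lysosomal membrane protein Lamp1 (249 TPM). All 5 Atg8 genes lay between 144 and 1056 TPM. At the low end stood Atg7 with 11.6 TPM (4.13 to 19.4), Tfeb with 9.34 TPM (5.09 to 16.4) and the receptor Optn with 6.78 TPM (1.95 to 14.7), whose ranges overlapped. Atg7, the member with the smallest p between genotypes, was thus among the 3 least abundant per length.

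**Figure D1:**
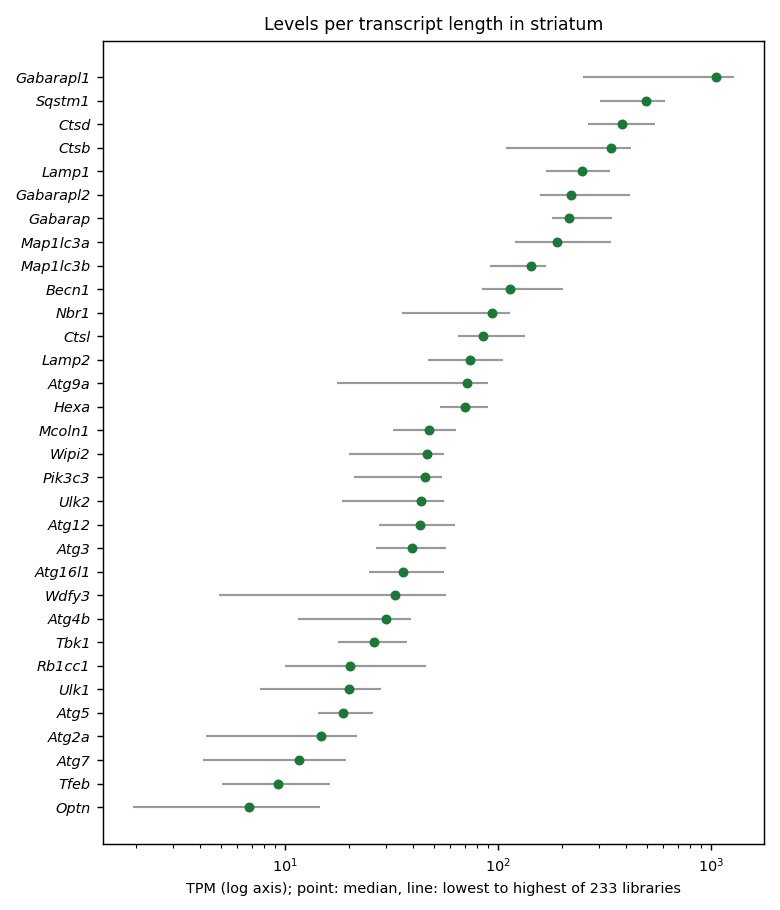
Median TPM of each of the 32 members over 233 libraries on a log axis, with bars from the lowest to the highest library. Gabarapl1 stands at 1056 TPM and Optn at 6.78 TPM.

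RefSeq promoter windows (build GRCm38.p6, 250 bases before to 50 after the gene start) were at hand for 24 of the 32 members. The letters CACGTG, which read the same on both strands and form the core of the element that Tfeb is known to bind, occurred in 8 of these 24 (33.3%), against 27 of 118 other autophagy and lysosome genes (22.9%) and 8.09% of all 27025 genes with a window. The longer palindrome TCACGTGA, which contains the first, occurred in 3 of 24 members (12.5%), against 11 of those 118 genes (9.32%) and 1.12% of all genes. The windows of 3 members are printed because they cover the cases met below: Lamp1 with 4 matches, and Mcoln1 and Atg7, the members with such a match that differed most clearly by genotype. CACGTG is in capitals, and only bases before any annotated exon are shown. Lamp1, which encodes an abundant glycoprotein of the lysosomal membrane, had matches that start 61, 45, 28 and 15 bases before its RefSeq start (chr8:13158911-13159160, plus strand).
Lamp1: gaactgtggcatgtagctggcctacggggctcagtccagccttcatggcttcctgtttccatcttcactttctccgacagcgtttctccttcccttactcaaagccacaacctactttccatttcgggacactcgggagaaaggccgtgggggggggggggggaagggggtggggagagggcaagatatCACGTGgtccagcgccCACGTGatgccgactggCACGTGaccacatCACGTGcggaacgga
Mcoln1 encodes the lysosomal calcium channel TRPML1. Its first match starts 71 bases before the RefSeq start and its second, 45 bases before it, lies in an annotated exon and is not shown (chr8:3500269-3500456, plus strand).
Mcoln1: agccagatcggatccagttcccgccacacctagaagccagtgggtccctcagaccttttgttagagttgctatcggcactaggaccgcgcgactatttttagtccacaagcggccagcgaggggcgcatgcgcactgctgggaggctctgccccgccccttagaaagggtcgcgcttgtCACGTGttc
The Atg7 window (chr6:114670846-114671095, plus strand) precedes an internal exon of the annotated gene, 28.0 kb after its first annotated base, and so is not the main promoter, although it counts among the 8. Its match starts 132 bases before the RefSeq start.
Atg7: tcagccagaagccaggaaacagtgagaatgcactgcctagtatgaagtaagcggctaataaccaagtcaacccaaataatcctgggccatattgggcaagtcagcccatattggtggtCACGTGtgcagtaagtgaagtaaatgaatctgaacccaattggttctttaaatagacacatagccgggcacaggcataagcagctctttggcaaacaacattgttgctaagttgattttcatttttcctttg
A match of letters is a description of the sequence and shows no binding.

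Genotype was examined first, as zQ175 DBD minus WT DBD. Averaged over the 5 paradigms, 15 of the 32 members passed an adjusted p of 0.05 with edgeR's quasi-likelihood test, 8 higher and 7 lower in zQ175. Of all 16792 genes tested, 46.9% passed (24.9% higher and 22.0% lower), so that the share among the members was close to the background. The members' changes were small: the median absolute log2 change was 0.08, against 0.13 over all genes. The 8 higher members, by p, were Atg7, Ulk1, Mcoln1, Sqstm1, Atg4b, Ctsl, Lamp1 and Lamp2, and the 7 lower ones were Atg12, Atg16l1, Ctsb, Pik3c3, Atg9a, Map1lc3b and Ctsd. With Estop in place of DBD in both genotypes, which uses other libraries but largely the same animals (20 zQ175 and 19 WT mice gave 1 library of each), 9 members were higher and 6 lower (46.6% of all genes called). Of these, 13 were called with both control viruses, Map1lc3b and Ctsb only with DBD, and Tbk1 and Tfeb only with Estop, and 31 of 32 members had the same sign with both. That the control viruses differ for those 4 members was not tested. The agreement of calls and signs over all genes is not given, so these counts cannot be set against a background. All samples are bulk tissue, where fewer cells of a type and less RNA per cell cannot be told apart.

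**Figure D2:**
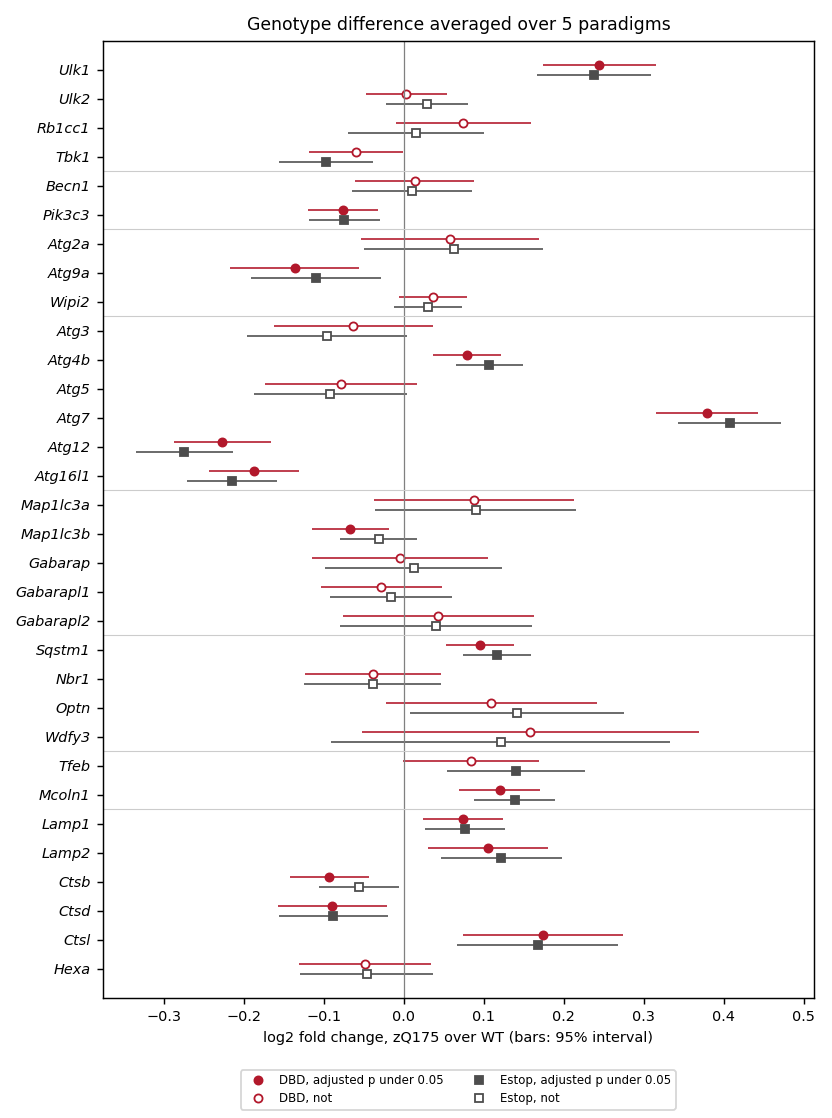
Log2 fold change of zQ175 over WT averaged over 5 paradigms for the 32 members, once with the DBD and once with the Estop virus as the control in both genotypes; bars are 95% intervals. Atg7 lies farthest to the right at 0.38 with DBD and 0.41 with Estop, and Atg12 farthest to the left at -0.23 and -0.27.

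Among the initiation kinases, 1 of 4 rose. Ulk1 (ENSMUSG00000029512, GRCm38 chr5:110784488-110810097, minus strand) encodes the protein kinase that starts autophagosome formation when nutrients are short. In zQ175 DBD its median was 49.6 CPM (36.6 to 52.3), 48.6 CPM (43.1 to 51.6), 54.6 CPM (46.5 to 57.0), 52.2 CPM (47.0 to 56.4) and 56.8 CPM (36.6 to 63.8), with the lowest and highest library in parentheses. In WT DBD it was 44.8 CPM (41.2 to 46.2), 39.8 CPM (31.5 to 48.0), 46.2 CPM (42.8 to 57.1), 42.5 CPM (32.6 to 43.8) and 44.5 CPM (29.6 to 49.6). Of the 39 zQ175 DBD libraries, 36 lay above the WT DBD median of their paradigm, and the groups did not overlap in 6M_10M. The share of all genes whose groups do not overlap is not given, here or for Atg7 and Atg12 below. The averaged change was 0.24 ± 0.036 on the log2 scale (adjusted p = 1.12e-09) and 0.24 ± 0.036 with Estop (adjusted p = 3.56e-09). The Estop groups had medians of 54.1, 43.7, 55.5, 52.2 and 61.0 CPM in zQ175 and 45.2, 38.5, 46.7, 46.9 and 45.3 CPM in WT. By paradigm the DBD changes were 0.11, 0.26, 0.17, 0.32 and 0.35, of which 3 passed and those of 2M_6M (adjusted p = 0.0917) and 6M_12M (adjusted p = 0.0538) did not. Without library R3 of zQ175 DBD, which held 36.6 CPM, Ulk1 passed in 2M_6M at 0.15 (adjusted p = 0.00462). The related kinase Ulk2 had 0.0031 ± 0.026, Rb1cc1, the FIP200 scaffold of the Ulk complex, 0.074 ± 0.043, and Tbk1, a kinase that phosphorylates the receptors Optn and Sqstm1, -0.060 ± 0.030. None of these 3 passed with DBD. Tbk1 passed with Estop, at -0.097 ± 0.030 (adjusted p = 0.0044), and with DBD in 6M_10M, at -0.16 ± 0.058. Its average with DBD passed without the libraries that stand apart, at -0.077 (adjusted p = 0.0172), and without those that go against their labels, at -0.077 (adjusted p = 0.0282).

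The class III PI3-kinase makes the phosphoinositide that marks the phagophore. Its catalytic subunit Pik3c3 (Vps34) fell by 0.08 on the log2 scale in zQ175 (SE 0.02, adjusted p = 0.00266) and had -0.074 ± 0.023 with Estop. Group medians of Pik3c3 were 63.2, 61.3, 62.5, 65.6 and 66.3 CPM in zQ175 DBD and 66.9, 68.5, 64.6, 69.3 and 66.0 CPM in WT DBD, and 66.3, 61.3, 63.0, 66.9 and 66.9 CPM in zQ175 Estop and 67.8, 67.3, 64.4, 69.4 and 68.8 CPM in WT Estop. The medians lay farthest apart in 2M_8M with either control, and in 6M_12M with DBD that of zQ175 was the higher one. Becn1, its regulatory subunit, had 0.014 ± 0.038 (adjusted p = 0.803).

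Of the 3 genes for membrane supply, Atg9a, the scramblase whose vesicles seed the phagophore, was lower, with a log2 change of -0.14 ± 0.041 (adjusted p = 0.00325). Its medians were 119, 121, 119.9, 126 and 129.9 CPM in zQ175 DBD and 128, 136, 121, 136 and 134 CPM in WT DBD, and 121, 111, 122, 121 and 131 CPM in zQ175 Estop and 132, 128, 119, 136 and 142 CPM in WT Estop. With Estop the change was -0.11 ± 0.041 (adjusted p = 0.0209). In 2M_6M, where Atg9a passed at -0.27, library R3 of zQ175 DBD held only 50.2 CPM, and without it the change was -0.15 (adjusted p = 0.0127). Atg2a, which transfers lipid into the phagophore, had 0.058 ± 0.057, and Wipi2, which recruits the conjugation machinery to it, 0.037 ± 0.021; neither passed.

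Of the 6 conjugation genes 2 were higher and 2 lower, and they include Atg7, the largest change of the 32 members. Atg7 (ENSMUSG00000030314, chr6:114643097-114860614, plus strand) encodes the E1-like enzyme that activates both Atg12 and the Atg8 proteins. Its median in zQ175 DBD was 19.8 CPM (19.0 to 22.6), 21.6 CPM (17.0 to 24.3), 20.7 CPM (17.5 to 23.9), 22.3 CPM (20.9 to 23.2) and 23.8 CPM (19.3 to 25.4). In WT DBD it was 16.3 CPM (14.0 to 16.8), 16.6 CPM (13.6 to 19.5), 15.7 CPM (14.4 to 19.5), 17.3 CPM (15.3 to 19.0) and 17.4 CPM (10.9 to 20.6). All 39 zQ175 DBD libraries lay above the WT DBD median of their paradigm, and the groups did not overlap in 2M_6M and 6M_10M. As for Ulk1, no share of all genes stands beside this. In zQ175 Estop the medians were 20.8, 21.5, 20.9, 21.5 and 24.1 CPM, against 15.7, 16.8, 16.2, 15.8 and 17.9 CPM in WT Estop, and all 40 zQ175 Estop libraries lay above the WT Estop median. Atg7 rose by 0.38 on the log2 scale averaged over paradigms (SE 0.03, adjusted p = 5.41e-23) and by 0.41 with Estop (SE 0.03, adjusted p = 3.26e-25). It was the single member that passed in all 5 paradigms, with changes of 0.35, 0.36, 0.34, 0.37 and 0.46, and with Estop they were 0.42, 0.41, 0.38, 0.40 and 0.44. The share of all genes that passed in all 5 paradigms is not given. In 6M_8M the change was 0.42 without the libraries that go against their labels.

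Atg12 (ENSMUSG00000032905, chr18:46730144-46741580, minus strand), the ubiquitin-like protein that Atg7 activates and that is joined to Atg5, went the other way. Its median in zQ175 DBD was 53.5 CPM (48.0 to 70.6), 47.3 CPM (42.9 to 56.7), 46.2 CPM (41.8 to 52.6), 45.5 CPM (41.8 to 47.3) and 41.5 CPM (37.9 to 46.7). In WT DBD it was 62.2 CPM (48.9 to 66.4), 55.6 CPM (44.7 to 65.5), 56.6 CPM (42.6 to 59.6), 52.3 CPM (50.9 to 70.6) and 50.9 CPM (39.9 to 57.6). Of the 39 zQ175 DBD libraries, 37 lay below the WT DBD median, with no overlap in 6M_10M. The zQ175 Estop medians were 50.5, 48.1, 46.7, 47.2 and 38.1 CPM, against 61.3, 56.1, 57.1, 59.1 and 46.2 CPM in WT Estop, and all 40 zQ175 Estop libraries lay below the WT Estop median. The averaged change was -0.23 ± 0.031 (adjusted p = 4.28e-11), and -0.27 ± 0.031 with Estop. Atg12 passed in 4 of 5 paradigms with DBD and in 5 of 5 with Estop, and the exception with DBD was 2M_6M, at -0.13 ± 0.068 (adjusted p = 0.15), where library R3 of zQ175 DBD was the highest. Without it Atg12 passed there at -0.22 (adjusted p = 0.00525).

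Atg16l1 (ENSMUSG00000026289, chr1:87755870-87792428, plus strand) binds the Atg12 and Atg5 conjugate and directs it to the phagophore. It fell in zQ175, by 0.19 on the log2 scale with DBD (SE 0.03, adjusted p = 3.94e-09) and by 0.22 with Estop (adjusted p = 2.23e-11). Its medians were 50.1, 45.1, 47.8, 44.6 and 48.4 CPM in zQ175 DBD and 61.0, 54.9, 54.7, 50.3 and 53.4 CPM in WT DBD, and 36 of 39 zQ175 libraries lay below the WT median of their paradigm. With Estop they were 51.6, 50.2, 47.2, 48.2 and 50.0 CPM in zQ175 and 58.2, 61.5, 57.3, 56.0 and 56.3 CPM in WT. It passed in 2M_8M and 6M_10M, and the other 3 paradigms had adjusted p-values between 0.0510 and 0.0540 at changes of a like size. Without library R3 of zQ175 DBD, the highest of its group at 71.2 CPM, it passed in 2M_6M at -0.28 (adjusted p = 0.000331). Atg4b, the protease that trims Atg8 proteins before conjugation, rose by 0.08 (SE 0.02, adjusted p = 0.000974) and by 0.11 with Estop. Its medians were 52.7, 55.9, 56.0, 56.3 and 57.1 CPM in zQ175 DBD and 52.0, 54.6, 51.0, 51.6 and 53.0 CPM in WT DBD, and 55.4, 61.8, 55.6, 57.4 and 56.7 CPM in zQ175 Estop and 52.3, 57.5, 51.9, 52.6 and 53.9 CPM in WT Estop. Atg5 had -0.079 ± 0.048 and Atg3, the E2-like enzyme for Atg8 proteins, -0.063 ± 0.051, and neither passed. Within 1 cascade, the genes for the E1-like enzyme and the protease rose and those for Atg12 and its partner Atg16l1 fell.

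**Figure D3:**
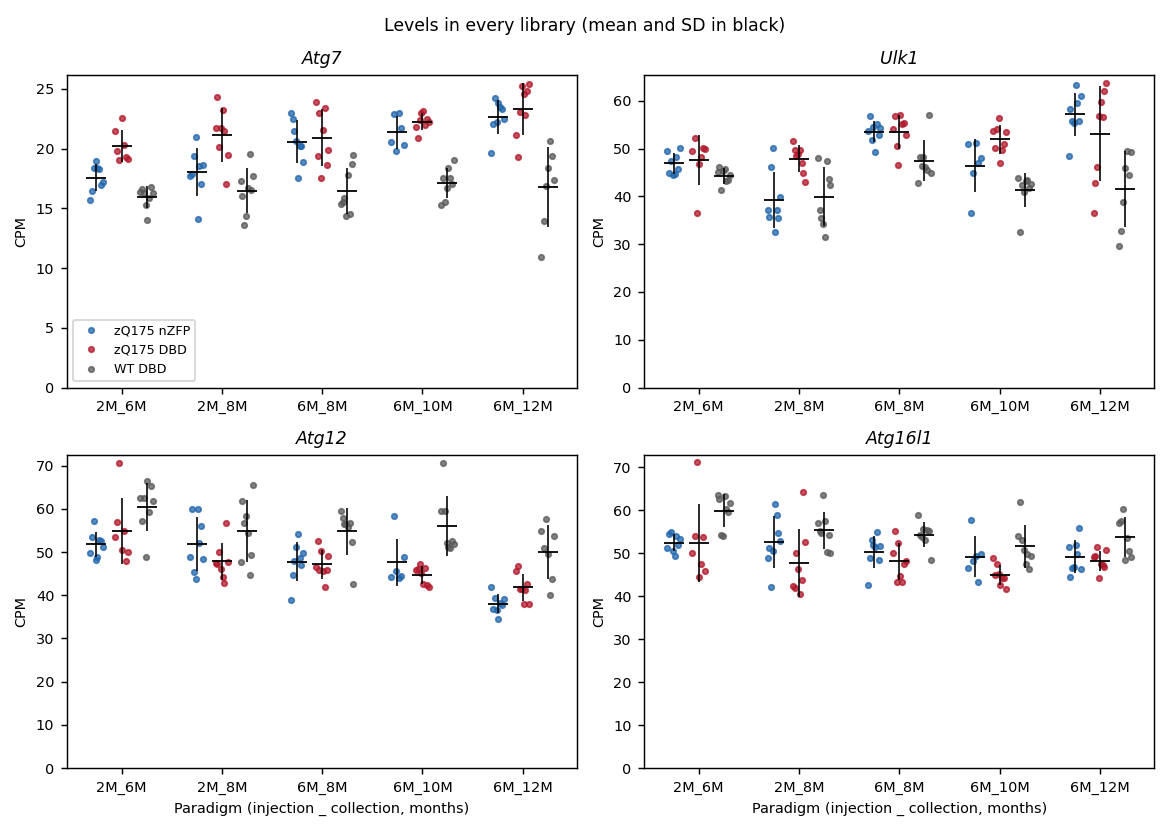
CPM of Atg7, Ulk1, Atg12 and Atg16l1 in each library of zQ175 nZFP, zQ175 DBD and WT DBD by paradigm. Black marks are group means with bars of the standard deviation. The Atg7 group medians, which are not drawn, were 19.8 to 23.8 CPM in zQ175 DBD and 15.7 to 17.4 CPM in WT DBD. In 2M_6M all zQ175 nZFP points of Atg7 lie below all its zQ175 DBD points.

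Of the 5 Atg8 genes, whose products coat the autophagosome and bind receptors, 1 passed. Map1lc3b (LC3B, the usual marker protein of autophagosomes) fell by 0.07 (SE 0.02, adjusted p = 0.0179), and had -0.032 ± 0.025 with Estop (adjusted p = 0.31). Map1lc3a had 0.088 ± 0.064, Gabarap -0.0044 ± 0.056, Gabarapl1 -0.028 ± 0.039 and Gabarapl2 0.043 ± 0.061. Gabarapl2 passed in 2M_6M alone, at 0.35, where library R3 of zQ175 DBD held 465 CPM and the group median was 172 CPM. Without that library its change was 0.026 (adjusted p = 0.747). These genes are close relatives, and RSEM divides reads that fit several of them by estimate.

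Among the receptors, Sqstm1 (p62), which links ubiquitinated cargo to Atg8 proteins, rose by 0.10 (SE 0.02, adjusted p = 6.69e-05) and by 0.12 with Estop. Its medians were 443, 513, 453, 498 and 529 CPM in zQ175 DBD and 434, 486, 404, 455 and 475 CPM in WT DBD, and 479, 545, 485, 506 and 562 CPM in zQ175 Estop and 431, 508, 427, 467 and 512 CPM in WT Estop. Nbr1, a receptor related to it, had -0.038 ± 0.043, Optn, which serves damaged mitochondria, 0.11 ± 0.067, and Wdfy3 (Alfy), an adaptor for aggregated protein, 0.16 ± 0.11. None of these 3 passed, and the error of Wdfy3 was the largest of the 32 members.

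Tfeb, the transcriptional regulator of the pathway, had 0.083 ± 0.043 with DBD (adjusted p = 0.104) and passed with Estop at 0.14 ± 0.044 (adjusted p = 0.00468). Mcoln1, whose upstream sequence is printed above, rose by 0.12 (SE 0.03, adjusted p = 2.51e-05) and by 0.14 with Estop. Its medians were 44.7, 48.6, 44.9, 47.9 and 53.0 CPM in zQ175 DBD and 43.0, 46.9, 40.1, 43.3 and 49.6 CPM in WT DBD, and 45.4, 52.4, 45.0, 44.4 and 53.5 CPM in zQ175 Estop and 42.6, 45.2, 39.8, 43.2 and 46.5 CPM in WT Estop. It passed in 6M_8M and 6M_10M, at 0.15 and 0.14.

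Of the 6 lysosomal genes, 5 passed, 3 higher and 2 lower. Ctsl, a cysteine protease, rose by 0.17 (SE 0.05, adjusted p = 0.00243) and by 0.17 with Estop. Its medians were 80.3, 89.0, 78.2, 84.2 and 83.1 CPM in zQ175 DBD and 68.9, 85.8, 73.6, 75.7 and 78.4 CPM in WT DBD, and 75.7, 105, 75.0, 84.5 and 82.6 CPM in zQ175 Estop and 69.4, 95.4, 67.4, 69.9 and 80.5 CPM in WT Estop. In 2M_6M, library R3 of zQ175 DBD held 183 CPM, and without it the change there was 0.17, in place of 0.42. The membrane proteins Lamp1 and Lamp2 had 0.074 ± 0.025 and 0.11 ± 0.038 (adjusted p = 0.0103 and 0.0159), and Lamp2 no longer passed without the libraries that stand apart (adjusted p = 0.0523). Lamp1 medians were 263, 290.2, 249, 276 and 281 CPM in zQ175 DBD and 243, 271, 241, 264 and 277 CPM in WT DBD, and 241, 292, 252, 273 and 296 CPM in zQ175 Estop and 235, 294, 235, 245 and 279.7 CPM in WT Estop. The 2 proteases with the highest levels were lower, Ctsb at -0.093 ± 0.025 (adjusted p = 0.000923) and Ctsd, an aspartic protease, at -0.089 ± 0.034 (adjusted p = 0.0249). Ctsb, another cysteine protease, had medians of 647, 728, 646, 720.0 and 797 CPM in zQ175 DBD and 714, 795, 658, 766 and 844 CPM in WT DBD, and 689, 795, 668, 699 and 802 CPM in zQ175 Estop and 731, 839, 677, 756 and 824 CPM in WT Estop, where it did not pass (-0.056 ± 0.025, adjusted p = 0.0593). Hexa, which degrades gangliosides, had -0.048 ± 0.042. The cathepsins among the members therefore did not move in 1 direction.

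By promoter window, 4 of the 8 members with CACGTG rose, Atg7 among them, 1 fell and 3 did not pass, and 4 of the 16 without it rose, 2 fell and 10 did not pass. These shares stand beside the 24.9% higher and 22.0% lower among all genes, and the split was not tested.

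Within single paradigms fewer members passed. The counts were 5, 6, 5, 7 and 2 of 32, where 28.7%, 18.7%, 9.12%, 24.2% and 18.3% of all genes passed. Higher in zQ175 were 4, 2, 4, 4 and 1 of them, against 17.2%, 9.32%, 3.98%, 11.9% and 9.14% of all genes, and lower were 1, 4, 1, 3 and 1, against 11.5%, 9.37%, 5.15%, 12.3% and 9.14% of all genes. A total of 13 members passed in at least 1 paradigm and 19 in none. The share of all genes that passed in at least 1 paradigm is not given, so these 2 counts have no background. In 6M_12M the 2 were Atg7 and Atg12. The count there depended on the model: it was 7 with the replicate number as a block, 11 with the length index as a covariate, 5 with Estop and 4 with DESeq2, and Atg7 and Atg12 passed in each. The shares of all genes in these fits, and in those without some libraries, are not given here. These counts therefore cannot be set against a background. Libraries of equal replicate number but different mice deviated together in 6M_12M, with a median correlation of 0.282. Without the libraries that stand apart the counts were 7 in 2M_6M and 10 in 6M_10M, where Atg9a (-0.13), Sqstm1 (0.12) and Ctsl (0.18) joined, and without those that go against their labels the count in 6M_8M was 7, where Atg16l1 (-0.20) and Sqstm1 (0.20) joined. In 2M_8M Ctsb and Ctsd passed beside Atg7, Ulk1, Atg12 and Atg16l1. The difference between the oldest and the youngest paradigm, 6M_12M minus 2M_6M, was tested directly, and 0 members passed with edgeR, where 0.238% of all genes passed. At an unadjusted p under 0.05 there were 2 (12.5% of all genes), Ulk1 at 0.25 ± 0.12 and Gabarapl2 at -0.41 ± 0.20, and Atg7 had 0.13 ± 0.11. DESeq2 was not run for that difference.

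**Figure D4:**
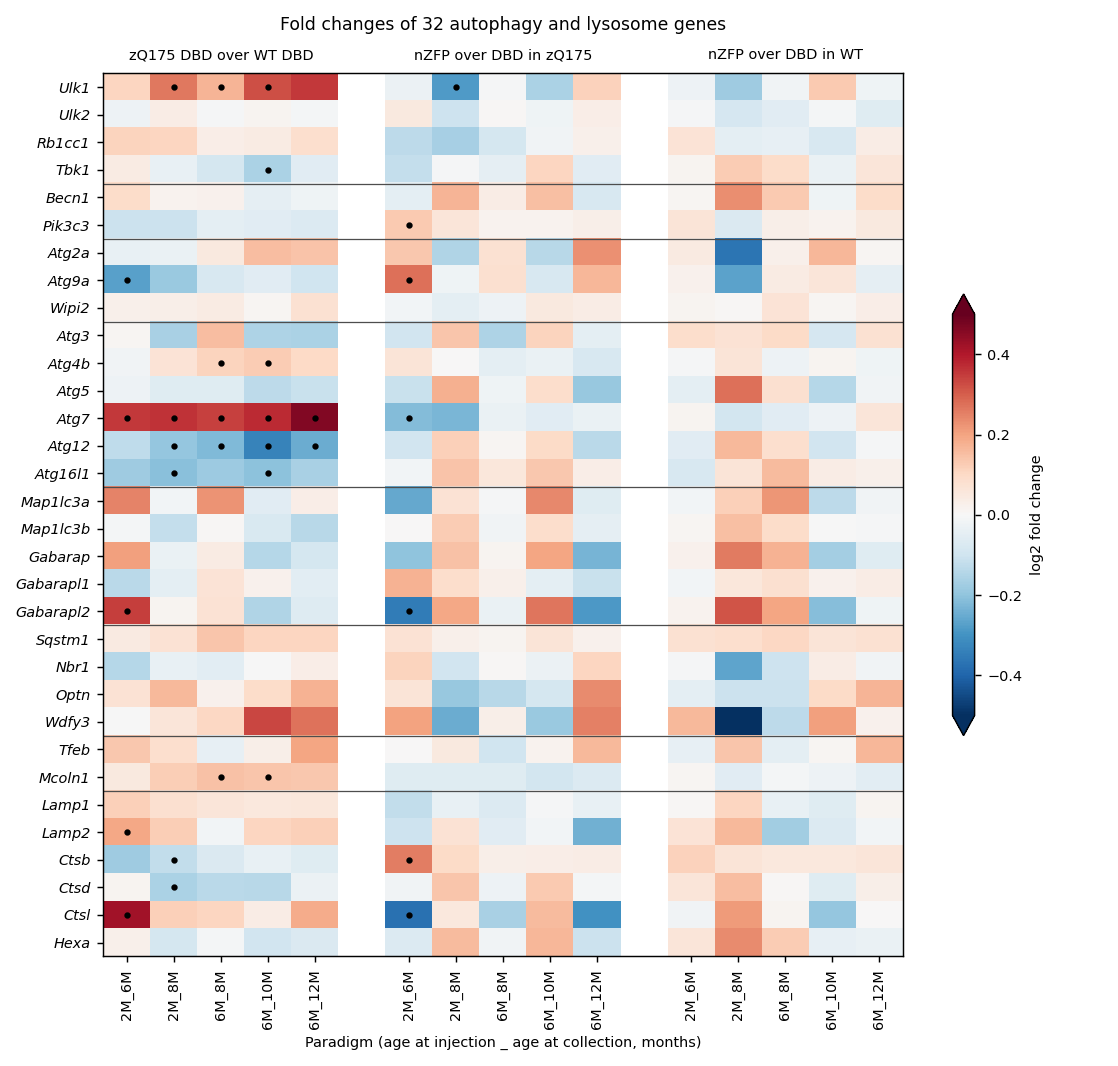
Heatmap of log2 fold changes of the 32 members, grouped by role, in 5 paradigms for zQ175 over WT (DBD virus), nZFP over DBD in zQ175 and nZFP over DBD in WT; dots mark adjusted p under 0.05. The Atg7 row has dots in all 5 genotype columns, and the WT repressor columns have none.

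Cell type markers moved with genotype as well. Of 12 medium spiny neuron markers, 11 were lower in zQ175 DBD, with group medians of the summed level at 7105 to 7718 CPM, against 12018 to 14799 CPM in WT DBD. Summed astrocyte markers lay at 3275 to 3567 CPM in zQ175 DBD and at 4024 to 4504 CPM in WT DBD (8 of 10 lower, 1 higher). Oligodendrocyte markers lay at 6685 to 7229 CPM in zQ175 DBD and 7489 to 9004 CPM in WT DBD (5 of 10 lower, 3 higher). Microglial markers lay at 542 to 614 CPM and 611 to 707 CPM (11 of 15 lower, none higher) and endothelial markers at 265 to 311 CPM and 301 to 351 CPM (6 of 8 lower, none higher). General neuronal markers lay at 4897 to 5291 CPM in zQ175 DBD and 4441 to 4866 CPM in WT DBD (2 of 10 lower, 4 higher). No marker was at 0, and their part in the members' changes was not tested.

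The repressor in zQ175 was examined as nZFP minus DBD. Averaged over paradigms, 2 of 32 members passed, Atg7 lower and Ctsb higher under nZFP, where 17.1% of all genes passed (8.61% higher and 8.52% lower). At an unadjusted p under 0.05 there were 9 (27.8% of all genes). Without the 3 libraries that stand apart the count was 5, as Atg16l1 passed, higher at 0.088 (adjusted p = 0.011), and Mcoln1 and Ctsl, lower at -0.068 (adjusted p = 0.0466) and -0.12 (adjusted p = 0.0306). The count was 6 with the replicate number as a block and 9 when the length index was a covariate, and Atg7 and Ctsb passed in each of these 3 fits. The shares of all genes in these 3 fits are not given here, so their counts cannot be set against a background. Medium spiny neuron markers moved as well: 11 of 12 were higher under nZFP, with group medians of the summed level at 7990 to 12718 CPM in zQ175 nZFP and 7105 to 7718 CPM in zQ175 DBD. Their part in the members' changes was not tested.

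Atg7 medians in zQ175 nZFP were 17.8 CPM (15.7 to 19.0), 18.2 CPM (14.1 to 21.0), 20.4 CPM (17.6 to 23.0), 21.1 CPM (19.8 to 23.0) and 22.9 CPM (19.7 to 24.2), against the zQ175 DBD medians of 19.8, 21.6, 20.7, 22.3 and 23.8 CPM given above. Of 38 nZFP libraries, 32 lay below the DBD median of their paradigm, and in 2M_6M all 8 lay below every DBD library. The change averaged -0.11 ± 0.033 (adjusted p = 0.00736) and held with Estop as the control, at -0.10 ± 0.032 (adjusted p = 0.0151), and with the mouse as a block, at -0.099 (adjusted p = 0.00262). By paradigm it was -0.22, -0.23, -0.032, -0.055 and -0.034, with adjusted p-values of 0.00919, 0.0818, 1, 0.657 and 0.866. The call in 2M_6M was lost with the mouse as a block (-0.21, adjusted p = 0.212). The 2 paradigms injected at 2 months had the larger values. Whether they differ from the later ones was tested for 2 paradigms with 6 months of treatment each: Atg7 had 0.19 ± 0.10 in 6M_12M minus 2M_8M (adjusted p = 0.264). Both the genotype and this comparison use the zQ175 DBD libraries, so that opposite signs in them are not independent. With Estop for the genotype and DBD for the repressor, which share no group but do share mice (20 zQ175 mice gave DBD and Estop, and 19 Estop and nZFP), Atg7 had 0.41 ± 0.033 for zQ175 over WT and -0.11 ± 0.033 for nZFP over DBD.

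Ctsb averaged 0.091 ± 0.025 (adjusted p = 0.00455). Its medians in zQ175 nZFP were 770.4, 795, 658, 733 and 795 CPM, against 647, 728, 646, 720.0 and 797 CPM in zQ175 DBD. With the mouse as a block it did not pass (0.078, adjusted p = 0.067), nor with Estop (0.024 ± 0.025, adjusted p = 0.612). In 2M_6M, library R3 of zQ175 DBD was the lowest at 387 CPM, and without it Ctsb there had 0.16 (adjusted p = 0.0984). With Estop as the control, 4 members passed, all lower under nZFP (14.5% of all genes called): Atg7, Ulk1 at -0.11 ± 0.036, Mcoln1 at -0.079 ± 0.026 and Atg4b at -0.060 ± 0.021. Members had the same sign with both controls in 26 of 32 cases, and only Atg7 was called with both. The same counts over all genes are not given.

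**Figure D5:**
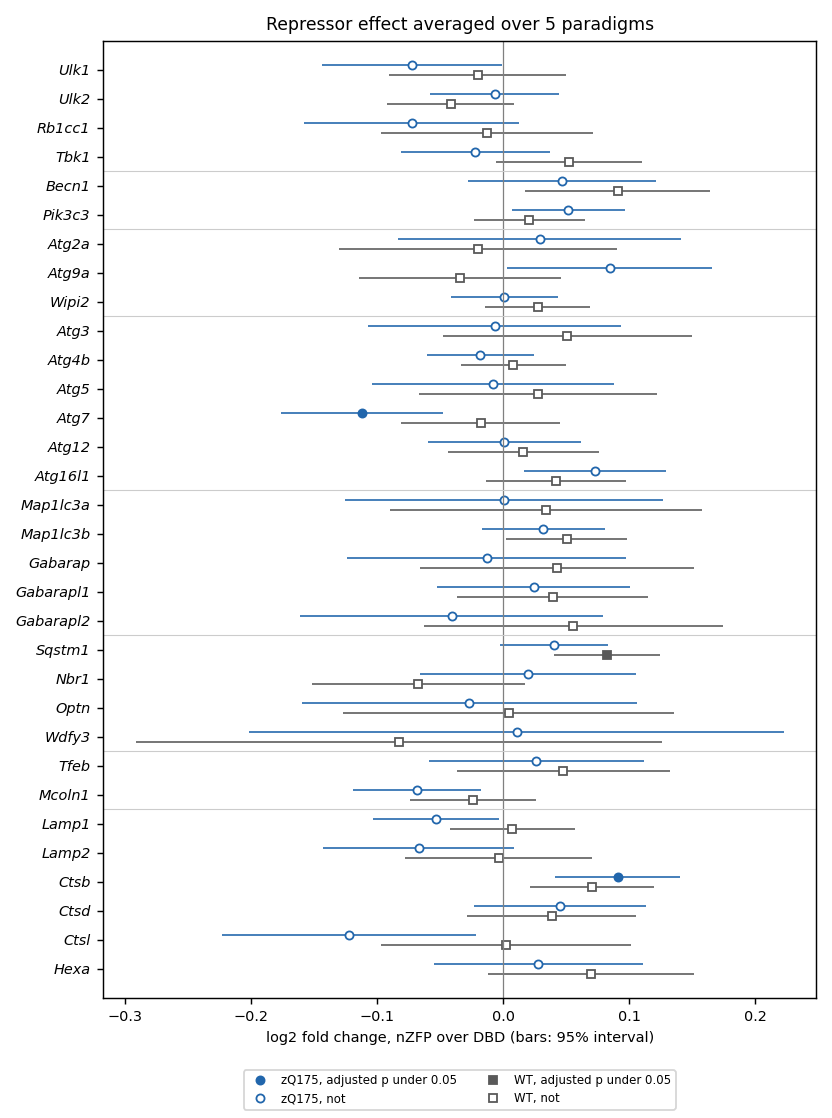
Log2 fold change of nZFP over DBD averaged over 5 paradigms for the 32 members, in zQ175 and in WT; bars are 95% intervals. In zQ175, Atg7 lies at -0.11 and Ctsb at 0.091, and in WT Sqstm1 lies at 0.082.

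The other members named for this comparison did not pass with DBD over all libraries. Atg16l1 had 0.073 ± 0.029 (adjusted p = 0.066), with medians of 52.6, 52.1, 51.5, 48.8 and 48.2 CPM in zQ175 nZFP. With the mouse as a block it passed, higher under nZFP at 0.10 (adjusted p = 0.000767), but it did not with Estop (0.021 ± 0.029). Ulk1 had -0.072 ± 0.036 (adjusted p = 0.177) and likewise passed with that block, lower at -0.084 (adjusted p = 0.029). Mcoln1 had -0.068 ± 0.026 (adjusted p = 0.0511), with 43.1, 48.5, 43.2, 44.5 and 50.5 CPM in zQ175 nZFP. Ctsl had -0.12 ± 0.051 (adjusted p = 0.0895) and 74.2, 97.1, 71.8, 78.4 and 73.5 CPM. For each the zQ175 DBD medians are those given with the genotype. Pik3c3 had 0.052 ± 0.023 and zQ175 nZFP medians of 67.7, 65.4, 62.3, 66.1 and 64.7 CPM. Lamp1 had -0.053 ± 0.026 and 243, 278, 243, 265 and 277 CPM, and Atg9a 0.085 ± 0.041 and 133, 120.5, 120.2, 123 and 138 CPM. Of those with the clearest genotype differences, Atg12 had 0.00094 ± 0.031 and zQ175 nZFP medians of 51.8, 50.5, 48.3, 45.1 and 37.9 CPM, and Sqstm1 0.040 ± 0.022 and 469, 507, 438, 498 and 519 CPM. Atg4b had -0.018 ± 0.022 and 53.8, 57.4, 54.9, 55.4 and 53.9 CPM. Of the 15 members that passed by genotype, Atg12 had the repressor value nearest to 0.

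By paradigm, 6, 1, 0, 0 and 0 members passed for nZFP over DBD in zQ175, where 23.2%, 7.06%, 0.112%, 0.972% and 1.25% of all genes passed with edgeR. Unadjusted p-values under 0.05 numbered 7, 5, 0, 3 and 1, against 36.8%, 20.2%, 4.78%, 12.4% and 11.2% of all genes. DESeq2 called 6, 1, 0, 0 and 0, against 24.7%, 8.26%, 0.356%, 1.43% and 1.78%. In 6M_12M the replicate number as a block gave 8 members in place of 0, and a length index covariate 1. The shares of all genes in those fits are not given here. The 6 in 2M_6M, where 8.8% of all genes were higher and 14.4% lower, were Pik3c3 (0.13), Atg9a (0.28) and Ctsb (0.26) higher and Atg7 (-0.22), Gabarapl2 (-0.35) and Ctsl (-0.37) lower. Without library R3 of zQ175 DBD, 2 of them passed, Atg7 at -0.23 and Atg9a at 0.15, and Pik3c3, Ctsb, Gabarapl2 and Ctsl no longer did. With the mouse as a block none passed in 2M_6M. The 1 in 2M_8M was Ulk1, lower at -0.28 ± 0.089 (adjusted p = 0.0398), with 37.2 CPM (32.5 to 50.1) in zQ175 nZFP and 48.6 CPM (43.1 to 51.6) in zQ175 DBD. The length index of these groups had medians of -0.15 in zQ175 nZFP and 0.33 in zQ175 DBD, and with the index as a covariate Ulk1 had -0.19 (adjusted p = 0.00421). With Estop it was -0.16 ± 0.089 (adjusted p = 0.416). In the other paradigms Ulk1 medians in zQ175 nZFP were 46.6 CPM (44.6 to 50.1) in 2M_6M, 53.9 CPM (49.3 to 56.8) in 6M_8M, 47.5 CPM (36.5 to 51.3) in 6M_10M and 57.0 CPM (48.5 to 63.4) in 6M_12M. In 6M_12M minus 2M_8M, 0 members passed (0.0834% of all genes), with 12 at an unadjusted p under 0.05 (20.0% of all genes), and Ulk1 had 0.39 ± 0.11 (adjusted p = 0.0977). Without the 4 libraries with the lowest length index Ulk1 passed, at 0.40 (adjusted p = 0.048). With the replicate number as a block 5 members did, with no share of all genes to set beside them. DESeq2 was not run for that difference.

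The repressor in WT was examined as a measure of what nZFP does where no expanded allele is present. In single paradigms 0 members passed with edgeR, where 0.268%, 2.98%, 0.581%, 0.48% and 0.238% of all genes passed. Unadjusted p-values under 0.05 numbered 0, 14, 7, 1 and 0, against 3.9%, 28.7%, 15.4%, 8.28% and 3.79% of all genes. In 2M_8M the length index had group medians of -0.32 in WT nZFP and 0.17 in WT DBD. Its part in these unadjusted counts was not tested. DESeq2 called 0, 1, 1, 0 and 0, against 0.405%, 6.64%, 3.18%, 0.832% and 0.335%. Without library R8 of WT nZFP, low in long transcripts, edgeR also called 0 in 6M_8M. Averaged over paradigms, 1 member passed, where 3.33% of all genes did: Sqstm1 rose by 0.08 under nZFP (SE 0.02, adjusted p = 0.00793). Its medians were 468, 522, 446, 479.7 and 510.4 CPM in WT nZFP and 434, 486, 404, 455 and 475 CPM in WT DBD. It did not pass with Estop (0.019 ± 0.022, adjusted p = 0.713) or with the mouse as a block (0.073, adjusted p = 0.0897). With that block the 1 member called was Becn1, at 0.087 (adjusted p = 0.0173), against 0.091 ± 0.038 without it (adjusted p = 0.209). With Estop the 1 member called was Tfeb (6.01% of all genes), at 0.17 ± 0.044 (adjusted p = 0.00667), against 0.048 ± 0.043 with DBD. Of the members with the clearest genotype differences, Atg7 had -0.018 ± 0.032 in WT, Ulk1 -0.020 ± 0.036, Atg12 0.016 ± 0.030 and Atg16l1 0.042 ± 0.028.

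The WT nZFP medians of the named members were as follows. Atg7 had 15.9, 15.2, 15.5, 16.6 and 17.0 CPM, Ulk1 42.4, 36.4, 48.4, 45.5 and 41.3 CPM and Atg12 58.2, 61.9, 55.5, 52.7 and 49.3 CPM. Atg16l1 had 55.9, 56.6, 59.1, 52.7 and 55.6 CPM, Mcoln1 43.6, 46.2, 41.1, 42.7 and 46.0 CPM and Atg4b 52.0, 58.9, 51.9, 51.8 and 50.7 CPM. For these 6 genes the averaged change of nZFP over DBD in WT did not pass. Ctsb had 814, 839.6, 701, 765 and 856 CPM, Ctsl 69.5, 101, 68.2, 69.8 and 80.7 CPM and Lamp1 243, 294, 232, 255 and 269.6 CPM. Pik3c3 had 70.2, 64.4, 65.2, 69.2 and 68.8 CPM and Atg9a 135, 111, 128, 137 and 129 CPM. Of these 5, Ctsb had the smallest p, at 0.071 ± 0.025 (adjusted p = 0.103).

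Whether the repressor acted differently in zQ175 than in WT was tested by the interaction averaged over paradigms. None of the 32 members passed with edgeR (3.64% of all genes did), 2 had an unadjusted p under 0.05 (14.0% of all genes) and DESeq2 called 0 (4.07%). The 2 were Atg9a at 0.12 ± 0.058 and Atg7 at -0.094 ± 0.046, each with an adjusted p of 0.327. With the length index as a covariate a member did pass, as the section on processing states, and it is not named here. In the fit without that covariate, the Atg7 change under nZFP is thus called in zQ175 and not in WT, while the difference between the genotypes did not pass.

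A further list of 144 genes of the pathway gives the surroundings. By genotype, 40 were higher and 22 lower in zQ175, 43.1% in all, against the 46.9% of all genes (24.9% higher and 22.0% lower). These shares of all genes also stand beside the counts of the single lists below, which were not tested as sets. All 8 of the 17 proton pump genes that passed were higher, among them Atp6v1a at 0.30 ± 0.029 and Atp6ap1 at 0.26 ± 0.025, subunits of the enzyme that acidifies the lysosome. All 4 of the 9 further initiation and PI3-kinase genes that passed were lower, among them Atg13, a partner of Ulk1, at -0.16 ± 0.026 and Atg14, which directs Pik3c3 to autophagy, at -0.18 ± 0.029. With Estop the same counts were found in these lists, 8 higher of 17 and 4 lower of 9. Lysosomal enzymes moved both ways (14 higher and 8 lower of 39), with Ids at 0.29 ± 0.037 and Galns at 0.39 ± 0.052 higher, both sulfatases, and Lipa, the acid lipase, at -0.16 ± 0.038 and Idua, an iduronidase, at -0.17 ± 0.040 lower. Of 19 lysosomal membrane and sorting genes, 9 were higher and 3 lower: Laptm4b had 0.40 ± 0.036 and the sialic acid exporter Slc17a5 0.26 ± 0.034, while the sorting receptor Sort1 had -0.19 ± 0.048 and Mfsd8 -0.11 ± 0.038.

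Of 12 genes of membrane supply and conjugation, 3 were higher, with Atg16l2, a relative of Atg16l1, at 0.46 ± 0.089 and Atg9b at 0.12 ± 0.050, and 1, Vmp1, an endoplasmic reticulum scramblase, lower at -0.34 ± 0.047. Atg16l2 and Atg16l1 thus had opposite signs. Of 13 receptors, the ferritin receptor Ncoa4 (0.10 ± 0.022) and Tollip (0.051 ± 0.021) were higher and the mitophagy receptor Bnip3 (-0.26 ± 0.050) and Calcoco1 (-0.23 ± 0.059) lower. Of 14 fusion genes, Stx17, the SNARE of the autophagosome, was higher at 0.32 ± 0.040, and Vps16, of the HOPS tether, and Rab7 lower at -0.089 ± 0.023 and -0.070 ± 0.020. Of 21 regulators 3 were higher, with the AMPK subunit Prkaa2 at 0.18 ± 0.046 and Flcn at 0.11 ± 0.028, and 2 lower, the transcription factor Foxo1 at -0.53 ± 0.046 and the Rag GTPase Rragd at -0.28 ± 0.028.

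Under nZFP over DBD in zQ175, 4 of the 144 genes were higher and 11 lower (10.4%, against 17.1% of all genes). Vps16 (0.080 ± 0.023), Idua (0.11 ± 0.041), Foxo1 (0.22 ± 0.046) and the mitophagy kinase Pink1 (0.12 ± 0.037) were higher. The proton pump subunits Atp6v1a (-0.13 ± 0.029) and Atp6ap1 (-0.078 ± 0.026), Ids (-0.12 ± 0.037), Ppt1 (-0.077 ± 0.021), Laptm4b (-0.12 ± 0.036), Ostm1 (-0.073 ± 0.024), Atg4c (-0.13 ± 0.026), Atg16l2 (-0.28 ± 0.089) and Flcn (-0.10 ± 0.028) were lower. In WT 2 were lower, Galc at -0.078 ± 0.020 and Mitf, a relative of Tfeb, at -0.20 ± 0.048, and none higher. Of all genes, 3.33% passed there in either direction. The interaction passed for Laptm4b at -0.19 ± 0.050 (edgeR adjusted p = 0.0116) and Foxo1 at 0.30 ± 0.065 (adjusted p = 0.000729), where 3.64% of all genes passed. The genotype and repressor comparisons share the zQ175 DBD libraries.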

How the data were processed

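Striatal polyA RNA of 233 libraries was sequenced, and per the submitters' processing notes the values were made with RSEM on GRCm38; no source used here gives versions, annotation or strand setting, so reads of overlapping or antisense genes cannot be told apart. The deposited expected counts are estimates per gene (90.3% of values whole), and the second deposited table, named FPKM, was read as TPM because its columns sum to 1000000. Counts were rounded, 6 vector entries (at most 0.669% of a library) left out, and genes kept by filterByExpr were tested in R 4.3.3 by edgeR 4.0.16 (robust quasi-likelihood F-test after TMM scaling, sex as covariate, Benjamini-Hochberg over all genes). Each paradigm had 1 fit (15673, 15786, 16000, 15840 and 15523 genes), and averages and differences between paradigms came from 1 fit of 30 groups (16792 genes). CPM use TMM library sizes. Errors after ± are standard errors of log2 fold changes. Gene coordinates are from GENCODE and promoters from RefSeq. Values of every group are given for the 8 members with the smallest p by genotype and the 8 by repressor in zQ175, and further members and up to 2 genes per list and direction where they passed. Members, lists and this rule were chosen with earlier results of these data known.

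Libraries of the same mouse deviated together (median correlations of 0.163, 0.258, 0.129, 0.117 and 0.331 by paradigm, from the mouse numbers in the labels), and the repressor was also fitted with the mouse as a block. The alternatives were Estop as control, RLE size factors, DESeq2 1.42.0, no low-count filter, replicate or mouse blocks, the length index as covariate, and leaving out libraries. Scripts were tested on simulated data. Replicates are different mice.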

Additional observations from a re-analysis of the deposited data

Results flagged for a closer look

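In 31 of 240 groups of libraries checked for the 12 named members, the highest or the lowest library lay far from the others of its group. The cutoff was one that independent, normally spread values pass in about 1 in 20 groups. The 240 checks read 12 members in the same libraries and are not independent, so the count cannot be set against that rate. No rate over all genes is given. The 31 values lay in 17 libraries. Library R3 of 2M_6M zQ175 DBD had 6 of them: Ctsl at 183 CPM (others 72.2 to 85.4), Atg12 at 70.6 CPM (others 48.0 to 56.9) and Atg16l1 at 71.2 CPM (others 44.6 to 53.9) were high, and Atg9a at 50.2 CPM (others 109 to 127), Ulk1 at 36.6 CPM (others 46.9 to 52.3) and Atg4b at 35.8 CPM (others 52.2 to 58.0) were low. Library R2 of 6M_10M zQ175 nZFP had 4: Ctsl at 171 CPM, Lamp1 at 352 CPM and Atg12 at 58.2 CPM were high and Atg9a at 79.2 CPM was low. Library R2 of 6M_10M WT DBD had 5: Ctsl at 137 CPM and Atg12 at 70.6 CPM were high, and Atg9a at 83.7 CPM, Ulk1 at 32.6 CPM and Pik3c3 at 63.0 CPM were low. Library R8 of 6M_8M WT nZFP had 3: Ctsl at 116 CPM was high, and Atg9a at 91.0 CPM and Ulk1 at 35.6 CPM were low. The length index of these 4 libraries was -1.37, -1.41, -1.23 and -0.94, the lowest of the series, and Ctsl was high and Atg9a low in each. The part of the index in these values was not tested.

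The remaining 13 libraries had 1 such value each. In zQ175 nZFP these were Mcoln1 at 36.8 CPM in 2M_6M R2, Pik3c3 at 52.5 CPM in 2M_8M R5, Ctsl at 60.5 CPM in 6M_8M R5, Pik3c3 at 71.9 CPM in 6M_10M R1 and Ctsl at 92.9 CPM in 6M_12M R1. In WT nZFP they were Ulk1 at 50.2 CPM in 2M_6M R2, Ctsl at 87.8 CPM in 6M_10M R2 and Mcoln1 at 35.9 CPM in 6M_10M R5. In WT DBD they were Lamp1 at 269.8 CPM in 6M_8M R1, Atg9a at 143 CPM in 6M_8M R5, Ulk1 at 57.1 CPM in 6M_8M R7, Atg12 at 42.6 CPM in 6M_8M R8 and Mcoln1 at 38.0 CPM in 6M_10M R3. Of these, 3 are libraries that go against their labels: 6M_8M WT DBD R7 and R8, in which repressor transcripts stood at 321 and 480 CPM, and 6M_8M zQ175 nZFP R5.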

How the results depend on the processing

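RLE size factors and leaving out the libraries that go against their labels moved no count of called members by more than 1.5 times. The shares of all genes under the alternatives are not given in this section. Its counts therefore describe how calls depend on the processing and say nothing particular to the members. With Estop as the control, genotype counts were 3 in 2M_6M, 3 in 2M_8M and 5 in 6M_12M (5, 6 and 2 with DBD), and repressor counts in zQ175 were 2 in 2M_6M, 0 in 2M_8M and 4 averaged (6, 1 and 2 with DBD). Gabarapl2 by genotype in 2M_6M (-0.013) and Lamp2 in 6M_8M (0.14) changed sign with Estop; the cause was not tested. With no low-count filter the genotype counts were 2 in 2M_8M and 2 in 6M_8M, and the repressor count in 2M_8M was 0. With the length index as a covariate the genotype counts were 11 in 2M_8M, 11 in 6M_10M and 11 in 6M_12M; the repressor counts in zQ175 were 3 in 2M_6M, 2 in 2M_8M, 1 in 6M_12M and 9 averaged, in WT 2 averaged, and the interaction count 1. DESeq2 gave 4 for genotype in 6M_12M, and 1 each for the repressor in WT in 2M_8M and 6M_8M. Without the libraries that stand apart the repressor in zQ175 had 2 in 2M_6M and 5 averaged. Leaving out 6M_8M WT nZFP R8 as well, an alternative chosen after seeing the data, gave 5 averaged and 1 for the repressor in 6M_12M minus 2M_8M.

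Libraries of equal replicate number but different mice had median correlations between -0.0173 and 0.0262 in 4 paradigms. In 6M_12M the median was 0.282 over 99 pairs (-0.168 to 0.671), against 0.331 for libraries of the same mouse, so that equal numbers deviated together there; the labels do not say what a number marks. With the replicate block, the genotype count in 6M_12M was 7, the repressor counts in zQ175 were 8 in 6M_12M and 6 averaged, those in WT 1 in 2M_8M and 2 averaged, and 5 for the repressor in 6M_12M minus 2M_8M. With the mouse as the block, which does pair libraries, the repressor in zQ175 had 0 in 2M_6M, and no other count moved by more than 1.5 times. Leaving out each replicate in turn was not run, because groups hold 6 or more libraries. Libraries of a group differed by more than counting error alone gives. How much of this spread lies between mice and how much between libraries of 1 mouse was not tested. Changes under about 0.1 on the log2 scale passed only in averages over paradigms.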
